A study of Mus musculus with 2 samples.

Results

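Vmn1r72, Vmn1r79, Vmn1r184 and Vmn1r185 are 4 of the 209 type 1 vomeronasal receptor (V1R) genes, named Vmn1r, among the 32285 mouse genes counted here. They were picked by name for where they had been seen along the neuronal lineage of the vomeronasal organ (VNO), from Neurod1+ precursors through Gap43+ immature neurons to Omp+ mature neurons. Their levels over those stages are therefore given as a description and not as a test. Whole VNOs of C57BL/6J wild-type male mice at postnatal day 60 (P60) were dissociated with papain and collagenase, frozen, thawed and captured on the 10x Genomics platform in 2 libraries, each aimed at 10000 cells. The labels name 5 organs without saying how they were divided between the libraries, and no mutant, treatment or other age was included. The libraries, called replicates 1 and 2 in the labels, are the replicates used here, so p-values measure the spread between these libraries, which may be technical.

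V1Rs are G protein-coupled receptors for semiochemicals, the small molecules that carry social and sexual information between animals. They are made by the apical class of vomeronasal sensory neurons (VSNs), which carry the transcription factor Meis2 and the G protein subunit Gnai2, whereas basal VSNs carry Tfap2e, Gnao1 and receptors of the V2R family. Both classes descend through precursors that express Neurod1, a transcription factor of differentiating neurons, and then Gap43, a protein of growing axons. Mature VSNs make the olfactory marker protein Omp, and most are thought to transcribe a single receptor gene at a high level.

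All of the genes lie on chromosome 7, in the GRCm38 (mm10) assembly with the GENCODE M21 annotation. They are described in pairs, of which only Vmn1r184 and Vmn1r185 are neighbours among V1R genes. Each has its whole protein-coding sequence in 1 exon. Vmn1r72 (ENSMUSG00000095430) spans chr7:11664479-11680147 on the minus strand and Vmn1r79 (ENSMUSG00000096735) spans chr7:12171279-12181533 on the plus strand, 491 kb apart with 15 other V1R genes between them. Vmn1r184 (ENSMUSG00000046130) spans chr7:26260334-26270619 on the plus strand and Vmn1r185 (ENSMUSG00000091924) spans chr7:26607636-26618464 on the minus strand, 337 kb apart with no other V1R gene between them. Identity was counted as matching bases of an alignment over the length of the longer coding sequence. Vmn1r184 and Vmn1r185 were each other's closest relative among the 209 V1R coding sequences, at 92.7% identity, and the next gene, Vmn1r71, reached 73.7% to either of them. Vmn1r72 and Vmn1r79 were 81.5% identical, and identity across the pairs was between 52.8% and 55.1%. Both had closer relatives elsewhere, Vmn1r75 for Vmn1r72 (82.6%) and Vmn1r238 and Vmn1r3 for Vmn1r79 (98.9%).

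The first 90 coding bases show how near the genes of each pair are. In the lines that follow, which are read from the assembly 5′ to 3′ on the coding strand, capitals mark each base that differs from the other gene of the same pair.
Vmn1r184, chr7:26266831-26266920, plus strand: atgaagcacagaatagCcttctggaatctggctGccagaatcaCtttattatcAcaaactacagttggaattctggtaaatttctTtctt
Vmn1r185, chr7:26611989-26612078, minus strand: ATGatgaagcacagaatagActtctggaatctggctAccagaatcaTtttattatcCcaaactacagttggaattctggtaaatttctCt
Vmn1r72, chr7:11670430-11670519, minus strand: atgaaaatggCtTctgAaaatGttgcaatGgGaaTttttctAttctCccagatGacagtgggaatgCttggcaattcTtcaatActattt
Vmn1r79, chr7:12176193-12176282, plus strand: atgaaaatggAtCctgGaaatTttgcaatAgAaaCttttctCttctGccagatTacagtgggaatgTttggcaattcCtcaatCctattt

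Vmn1r184 and Vmn1r185 differed at 5 and 8 of these bases, the larger number counting 3 extra bases at the Vmn1r185 start, and Vmn1r72 and Vmn1r79 differed at 13. The longest stretch that Vmn1r184 and Vmn1r185 share without a mismatch is shown because a 90-base read that falls inside it could not be assigned to either gene. It has 125 bases, from coding base 260 in Vmn1r184 (chr7:26267090-26267214, plus strand) and from coding base 263 in Vmn1r185 (chr7:26611692-26611816, minus strand).
Shared run: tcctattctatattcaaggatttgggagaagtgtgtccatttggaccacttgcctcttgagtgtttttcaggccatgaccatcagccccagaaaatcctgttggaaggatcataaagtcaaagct

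The counting tool, Cell Ranger, keeps a read only where it fits a single gene, so shared stretches cost counts rather than adding them, and reads that carry an error can still move between near copies. Of all 90-base windows in the annotated transcripts, 2.75% of those of Vmn1r184 and 3.25% of those of Vmn1r185 also occurred in the other gene, and within the last 500 bases of a transcript, where this 3′ assay reads, at most 7.06% did. Vmn1r79 was 98.9% identical to Vmn1r238 and to Vmn1r3 and 98.6% to Vmn1r2, and up to 76.4% of the windows in the last 500 bases of its transcripts were shared, so its counts are uncertain and may be too low. Vmn1r72 shared no 90-base window with another V1R gene.

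The libraries held 12814 and 11270 cell barcodes and 108005626 and 95442231 unique molecular identifiers (UMIs, each counting 1 captured 3′ end, with no scaling by gene length). At up to 5% mitochondrial UMIs and between 200 and 9000 genes, 5694 and 4898 cells were kept, with medians of 6668 and 6650.5 UMIs. The libraries shared 33 barcodes, and their UMI sums differed far beyond sampling noise (chi-square of 35.6 per degree of freedom over 19851 genes). Scrublet called 68 (1.19%) and 104 (2.12%) kept cells doublets, which stayed in. Stages were gated on UMIs of the marker genes. Neurod1+ precursors (270 cells, 150 and 120 by library) had at least 1 Neurod1 UMI and at most 1 of Omp. Immature cells had no Neurod1 UMI, at least 2 of Gap43, at most 1 of Omp and at least 2 over a panel of 8 neuronal genes (Stmn2, Stmn3, Tubb3, Gng8, Uchl1, Ncam1, Elavl3 and Elavl4), and divided into 211 with Meis2 (114 and 97), 74 with Tfap2e (42 and 32), 11 with both and 61 with neither. Mature cells had no Neurod1 UMI, at least 2 of Omp, more of Omp than of Gap43 and at least 2 of the panel, with 947 carrying mostly Gnai2 (540 and 407) and 104 mostly Gnao1. Gnai2 and Gnao1 set no gate of immature cells: Gnai2 was found in 99.1% of Meis2 and 73.0% of Tfap2e cells (1085 and 204 CPM, counts scaled to 1000000 UMIs of the group) and Gnao1 in 41.7% and 93.2% (95.6 and 408 CPM). Of macrophages, defined next, 85.8% held Gnai2. Precursors held the neuronal genes Stmn2 and Lhx2 in 91.9% and 90.4% of cells. Free RNA was gauged in 1638 macrophages (at least 10 UMIs of C1qa, C1qb and C1qc), which should hold no V1R transcript but had a median of 4940.5 UMIs against 9083.5 in precursors, 8967 in immature Meis2 cells and 14302 in mature Gnai2 cells.

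At least 1 UMI of any of the 4 genes was present in 11 of 270 precursors (4.07%, exact 95% binomial interval 2.05 to 7.17%), 43 of 211 immature Meis2 cells (20.4%, 15.2 to 26.5%), 1 of 74 immature Tfap2e cells (1.35%) and 118 of 947 mature Gnai2 cells (12.5%). Macrophages held 1 in 3.24% of cells, so the share in precursors lay close to that of cells which should lack the genes, while the shares on the Meis2 branch lay above it. These intervals, like all others here, cover counting error only. The 4 genes had very different patterns behind these shares, as the plot of UMIs per cell shows.

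**Figure D1:**
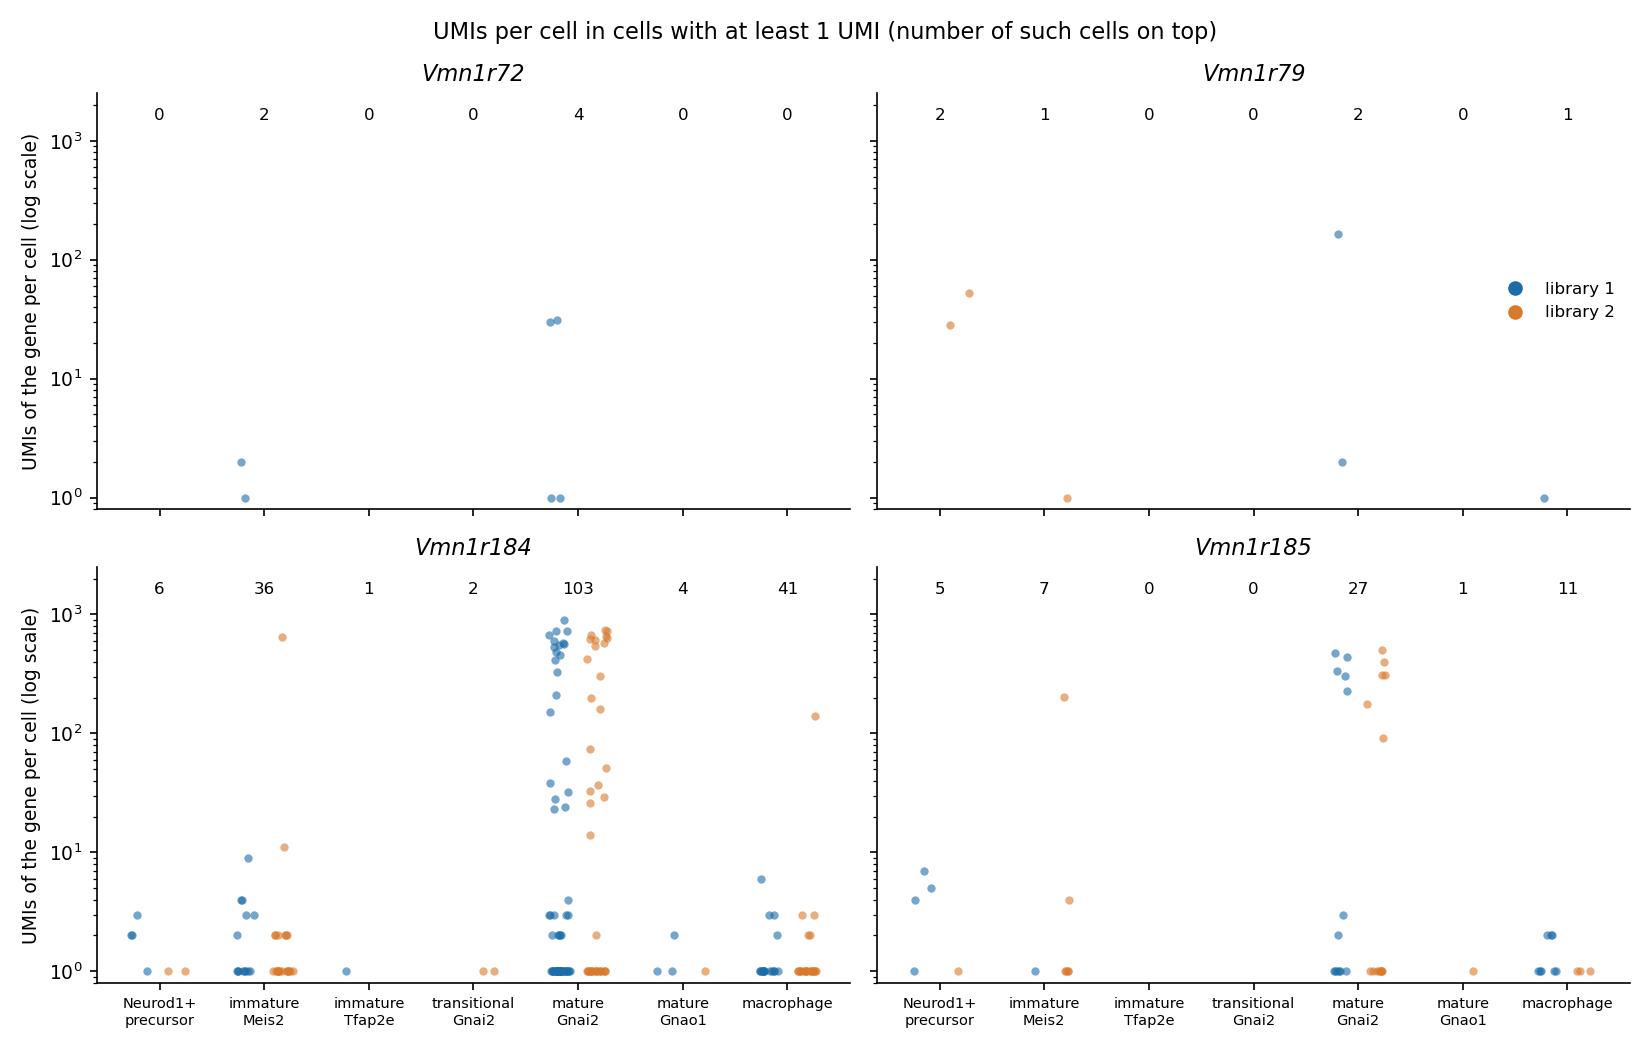
UMIs of each gene per cell (log axis) in the cells that hold at least 1, by stage and coloured by library, with the number of such cells on top. Vmn1r184 and Vmn1r185 form a group of mature Gnai2 cells at 100 or more UMIs apart from many cells at 1 or 2, whereas Vmn1r72 and Vmn1r79 rest on a few cells.

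Vmn1r72 had no UMI in the gated precursors: 0 of 270 cells, which allows cells with a UMI a share of up to 1.11% by a floor of 3 counts and 1.36% by the exact interval. Immature Meis2 cells held 3 UMIs in 2 cells, both in replicate 1. Mature Gnai2 cells held 63 UMIs in 4 cells, with 31, 30, 1 and 1 UMIs, again all in replicate 1. In CPM that was 6.77 in mature Gnai2 cells of replicate 1 and 0 in those of replicate 2, and no macrophage had a UMI. The gene did reach a high level in a Neurod1+ cell, but not in one that the precursor gate takes: a cell of replicate 2 with 13 Neurod1, 3 Gap43, 10 Meis2 and 7 Omp UMIs among 22128 held 285 UMIs of Vmn1r72 and no other V1R, and was not called a doublet. It was 1 of 14 cells that carried Neurod1 together with at least 2 Omp UMIs. Within the gates the earliest UMIs of Vmn1r72 were those in immature Meis2 cells.

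Vmn1r79 had most UMIs of all V1R genes in precursors, 81, and they came from 2 cells of replicate 2 with 28 and 53. Both cells carried Neurod1 (7 and 8 UMIs), its upstream factor Neurog1 (4 and 3), Gap43 (5 and 19) and Meis2 (4 and 23), with 0 and 1 UMIs of Omp, and neither was called a doublet. The cell with 28 UMIs held no other V1R gene, and in the other cell Vmn1r79 made up 98.1% of V1R UMIs. At the next stages the gene was close to absent, with 1 UMI in immature Meis2 cells and 167 in 2 mature Gnai2 cells of replicate 1, of which 165 were in a single cell. A macrophage held 1 UMI. The level in precursors was 0 and 73.2 CPM in replicates 1 and 2 and that in mature Gnai2 cells 17.9 and 0 CPM, so the order of these stages turned with the library.

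Vmn1r184 was the V1R gene with most UMIs in mature Gnai2 cells, with 8128 in 65 of 540 cells (12%) of replicate 1 and 7153 in 38 of 407 cells (9.34%) of replicate 2. These sums correspond to 873 and 886 CPM, so the libraries differed little. It also had most UMIs of all V1R genes in immature Meis2 cells, but unevenly: 33 UMIs in 14 of 114 cells (12.3%) of replicate 1 and 685 in 22 of 97 cells (22.7%) of replicate 2. A single cell of replicate 2, with 10585 UMIs and no other V1R gene, held 648 of them. Precursors had 8 UMIs in 4 cells and 2 UMIs in 2 cells, with at most 3 in a cell. That is 2.22% of precursors (0.820 to 4.77%), not above the 2.50% of macrophages, and with all cells thinned to 5909 UMIs low counts were found in 0.823% of precursors and 2.24% of macrophages, so the precursor share did not stand above that of cells which should lack the gene. Within each library the order by level was mature Gnai2, immature Meis2 and then the rest given here. Across libraries it did not hold, as macrophages of replicate 2 (39.3 CPM) stood above immature Meis2 cells of replicate 1 (30.2 CPM). Without the 2 cells that hold 100 or more UMIs of a member, immature Meis2 cells had 30.1 CPM, beside 22.6 CPM in macrophages of both libraries. Replicates of immature Meis2 cells spanned 30.2 to 777 CPM, and precursors (5.09 and 1.81 CPM), immature Tfap2e cells (2.43 and 0), mature Gnao1 cells (3.93 and 1.08) and macrophages (6.35 and 39.3) did not separate from each other.

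In immature Meis2 and mature Gnai2 cells Vmn1r185 followed its neighbour at a lower level, whereas in precursors of replicate 1 it had more UMIs. Mature Gnai2 cells held 1794 UMIs in 13 cells and 1801 in 14 cells by library (193 and 223 CPM), which placed it at rank 10 of the V1R genes. Immature Meis2 cells held 1 UMI in replicate 1 and 209 in 6 cells of replicate 2, of which 201 were in a single cell that also had 11 UMIs of Vmn1r184. Precursors held 17 UMIs in 4 cells and 1 UMI in 1 cell (10.8 and 0.903 CPM), and the share of 1.85% of cells (0.604 to 4.27%) stood beside 0.672% (0.336 to 1.20%) of macrophages, with intervals that overlap. Of those 5 precursors, 2 were small early cells of replicate 1 in which transcripts of the nasal glands were abundant: the gland genes Lcn3, Lcn4, Obp2a and Bpifb9b made up 19.0% of 1757 UMIs in the cell with 7 Vmn1r185 UMIs and 14.7% of 2150 UMIs in the cell with 5. A further 2 cells held 1 UMI each, and a late precursor of replicate 1 with 16003 UMIs held 4.

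**Figure D2:**
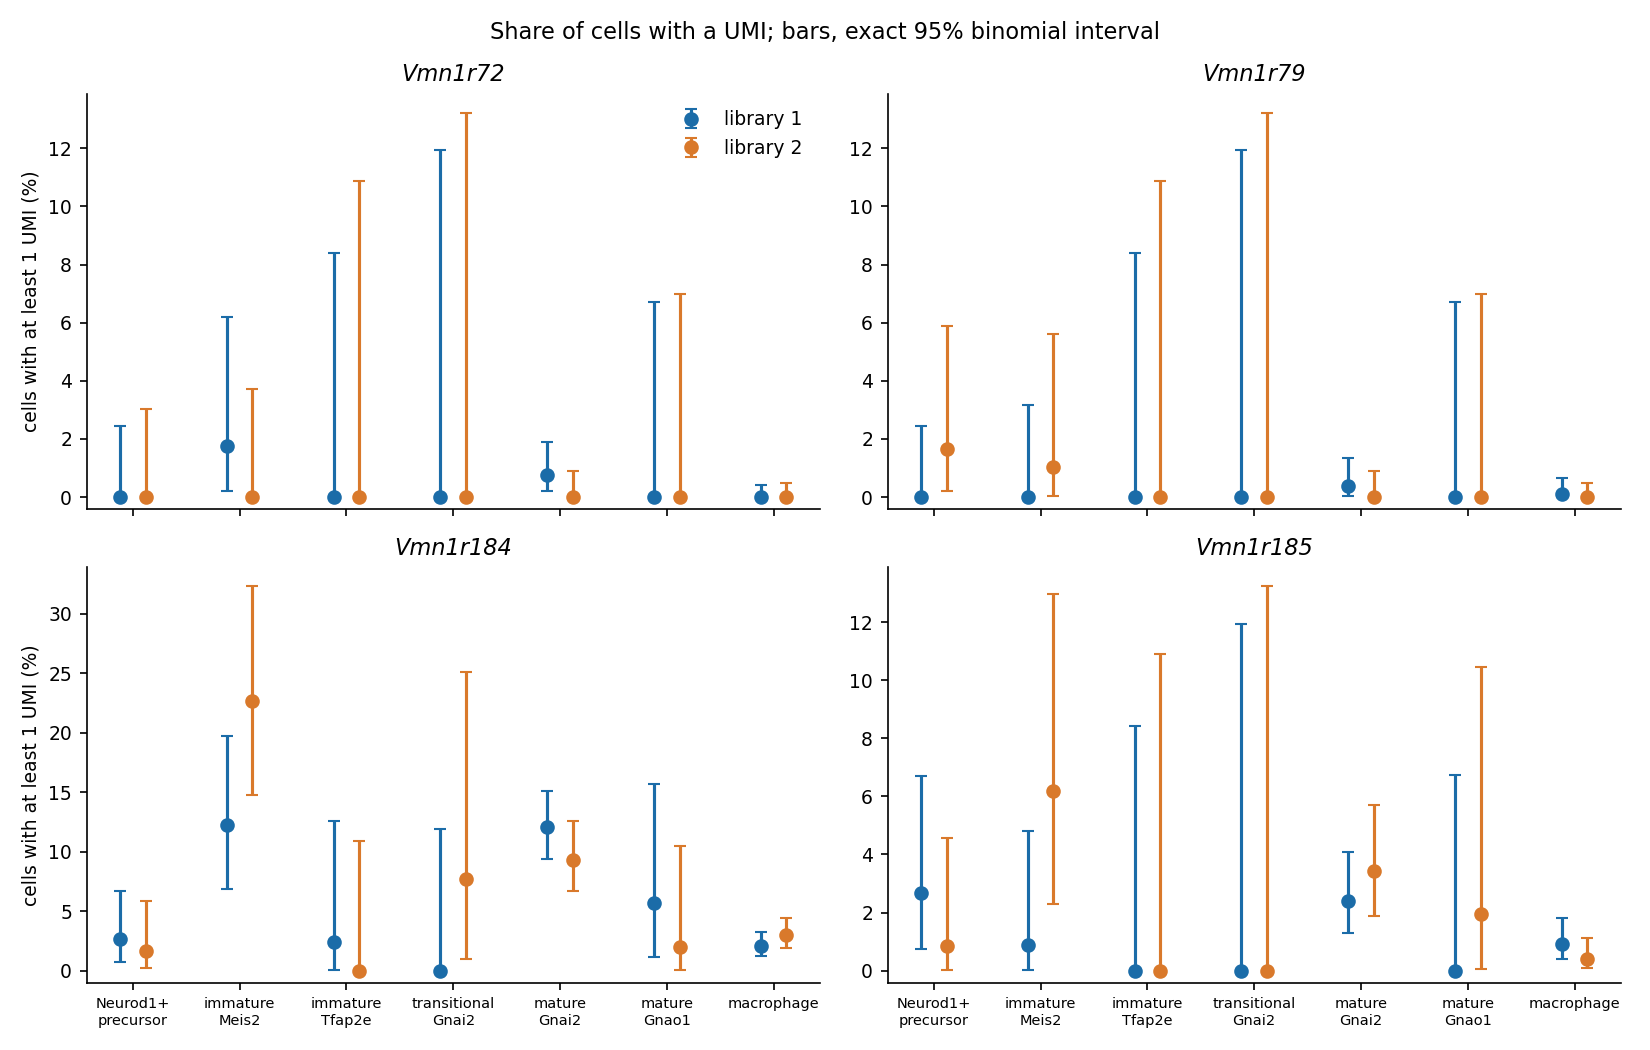
Share of cells with at least 1 UMI of each gene (percent) by stage, for replicates 1 and 2, with bars for the exact 95% binomial interval. The share for Vmn1r184 was 12.3% and 22.7% in immature Meis2 cells and 12% and 9.34% in mature Gnai2 cells, while the intervals of Vmn1r72 and Vmn1r79 reach 0 or nearly so at most stages.

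Set against the rest of the family, the 4 genes took 109 of 359 V1R UMIs in precursors (30.4%), 932 of 4280 in immature Meis2 cells (21.8%) and 19106 of 163200 in mature Gnai2 cells (11.7%). In macrophages the part was 21.8% of 969 V1R UMIs and in gland-gated cells, defined further on, 23.1% of 529. The macrophage part leans on 1 cell. Vmn1r184 gave 196 of its 211 UMIs, 28 in replicate 1 and 168 in replicate 2, and 1 macrophage held 10 or more. The parts in precursors and immature cells also rest on few cells with high counts and are not read as an enrichment. In precursors 71 V1R genes had at least 1 UMI. Only 5 precursors held 10 or more UMIs of a V1R gene, 2 of them with Vmn1r79, 2 with Vmn1r43 and 1 with Vmn1r89. By UMIs the leading V1R genes of precursors were Vmn1r79 (81 in 2 cells), Vmn1r89 (72 in 6), Vmn1r43 (40 in 4), Vmn1r185 (18 in 5) and Vmn1r35 (13 in 10), with Vmn1r184 next at 10 in 6. In immature Meis2 cells 120 V1R genes were seen, and 41 of 211 cells (19.4%) held 10 or more UMIs of one, 2 of them through a member of the 4. In mature Gnai2 cells that share was 81.4%. Between those stages stood 55 transitional Gnai2 cells, with at least 2 Omp UMIs and no fewer of Gap43: 41 (74.5%) held a V1R gene at 10 or more UMIs, and the 4 genes had 2 of their 5939 V1R UMIs.

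Low counts in immature Meis2 cells were found in the largest share of cells for Vmn1r184 among V1R genes. This is a description, since the gene was chosen with the stage in view. Among immature Meis2 cells in which Vmn1r184 was not the leading V1R gene (most UMIs, at least 3 and no tie), 30 of 205 held 1 to 9 UMIs (14.6%, 10.1 to 20.2%). The next genes, each taken over the cells it did not lead, were Vmn1r37 at 6.25% and Vmn1r35 at 5.80%, and Vmn1r185 was at 2.39%. In macrophages the gene was not so placed: Vmn1r184 was at 2.20%, behind Vmn1r35 at 3.43% and Vmn1r89 at 2.63%. With cells thinned to 5909 UMIs the shares were 12% (7.69 to 17.6%) of 183 immature Meis2 cells and 2.24% (1.20 to 3.80%) of 580 macrophages. Thinned immature Tfap2e cells held none (0 of 71, interval up to 5.06%), and the share was 4.22% in thinned mature Gnai2 cells. Immature cells with neither Meis2 nor Tfap2e had more Gnao1 than Gnai2 (490 and 192 CPM). There Vmn1r184 had rank 1 of the V1R genes by cells with low counts, 4 of 61 (6.56%). Thinned, the share was 4 of 48 (8.33%). Its interval overlaps those of thinned immature Meis2 cells, immature Tfap2e cells and macrophages. The size of the share in immature Meis2 cells differed between the libraries. It was 9.09% in replicate 1 and 21.1% in replicate 2 before thinning and 6.45% and 17.8% after it. Thinned macrophages were at 2.06% and 2.42%. In replicate 1 the intervals of the 2 cell groups overlapped (2.40 to 13.5% and 0.760 to 4.43%). In replicate 2 they did not (10.5 to 27.3% and 0.979 to 4.93%). At 5 to 10% mitochondrial UMIs, 4 of 73 immature Meis2 cells (5.48%) had such counts.

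**Figure D3:**
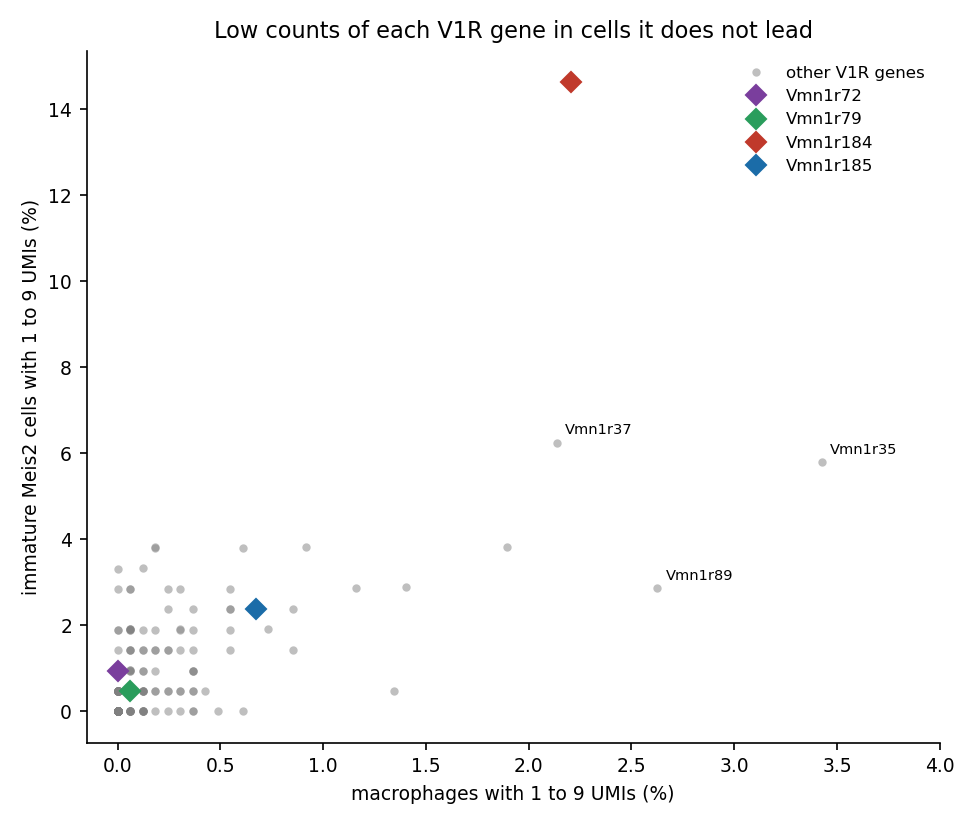
Each point is a V1R gene, placed by its share of cells with 1 to 9 UMIs (percent) in macrophages and in immature Meis2 cells, both over cells it does not lead. Vmn1r184 lies at 14.6% of immature Meis2 cells and 2.20% of macrophages, above Vmn1r37 at 6.25% and 2.14%.

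The 36 immature Meis2 cells with Vmn1r184 were not cells without other receptors. Of these, 22 held 1 UMI, 12 held 2 to 9 and 2 held more. Another V1R gene was present in 31 of them (86.1%), against 127 of 175 cells without Vmn1r184 (72.6%), and another V1R reached 10 UMIs in 5 (13.9%) against 35 (20%). The cells were of like depth, with medians of 8605 and 9038 UMIs, and held 4 and 10 called doublets. Examples were a cell of replicate 1 with 9 UMIs of Vmn1r184 beside 53 of Vmn1r86, and a cell of replicate 2 with 2 UMIs beside 109 of Vmn1r35.

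In mature Gnai2 cells the 4 genes led 44 of 947 cells (4.65%, 3.40 to 6.19%), 25 in replicate 1 and 19 in replicate 2, and another V1R gene led 786 (83.0%). Vmn1r184 led 31 cells with a median of 544 UMIs and 99.8% of their V1R UMIs, Vmn1r185 led 11 with a median of 312 and 90.8%, and Vmn1r72 and Vmn1r79 led 1 each, with 31 and 165 UMIs. For the 786 other cells the median was 140 UMIs and 99.6%. Cells led by Vmn1r185 thus gave a smaller part of their V1R UMIs to the leading gene. In 9 of the 11 the remainder was Vmn1r184 but for at most 6 UMIs, and the other 2, both in replicate 2, held 5 and 11 V1R genes.

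All 11 mature cells led by at least 50 UMIs of Vmn1r185 also held Vmn1r184, at 362 UMIs for 3576 of Vmn1r185, or 10.1 per 100, with a range over cells of 7.57 to 16.6. The reverse was not seen. Of 27 mature cells led by at least 50 UMIs of Vmn1r184, 5 held Vmn1r185, with 6 UMIs for 14158 of Vmn1r184 (0.0424 per 100). Cells at 5 to 10% mitochondrial UMIs, which took no part in the counts above, gave the same one-sided relation: 16 of 16 cells led by Vmn1r185 held Vmn1r184, at 8.52 per 100, and 5 of 39 led by Vmn1r184 held Vmn1r185, at 2.10 per 100, nearly all of it from 2 cells with 121 UMIs beside 194 and 151 beside 275. The immature Meis2 cell with 201 UMIs of Vmn1r185 had 5.47 per 100. The genes share 92.7% of their coding bases, as the lines of sequence above show, and whether these Vmn1r184 counts are transcripts of Vmn1r184 or reads of Vmn1r185 assigned to it was not tested.

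**Figure D4:**
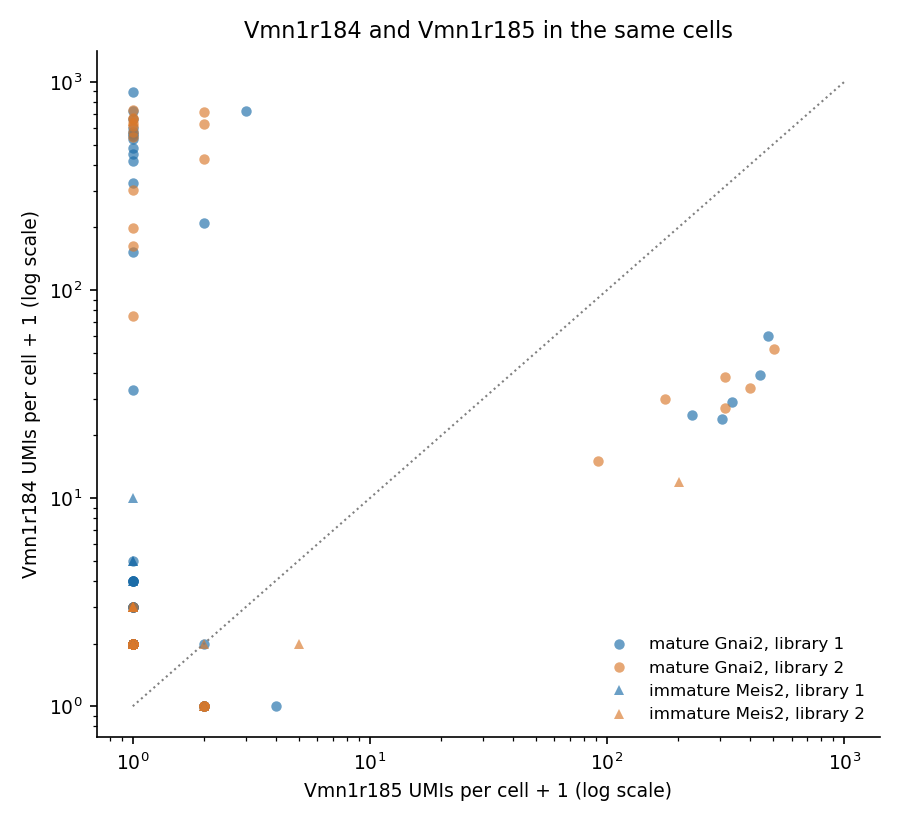
UMIs of Vmn1r184 against Vmn1r185 per cell, each plus 1, on log axes, in mature Gnai2 and immature Meis2 cells that hold either gene, with a dotted line of equality. Cells high in Vmn1r185 lie along a band with Vmn1r184 at 7.57 to 16.6 per 100, whereas cells high in Vmn1r184 hold at most a few UMIs of Vmn1r185.

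Outside the lineage, Vmn1r185 had a second and weaker place of detection. In cells with at least 5% of their UMIs from the gland genes, 18 of 172 (10.5%) in replicate 1 and 1 of 163 (0.614%) in replicate 2 held a UMI of it, and 14 cells held 3 or more, 13 of them in replicate 1. The V1R gene Vmn1r43 was found in the same kind of cell, in 19 cells of replicate 1 and none of replicate 2, and 17 cells held both. Vmn1r184 was in 18 and 9 gland-gated cells by library (10.5% and 5.52%), never with 3 or more UMIs. The 14 cells with 3 or more UMIs of Vmn1r185 had a median of 1842 UMIs (range 1187 to 56008), against 18512 in all gland-gated cells. The levels that follow pool the UMIs of these 14 cells and so lean on the deepest one. Genes of secreted proteins were no higher in them than in gland-gated cells as a whole for Wfdc18 (235740 and 280090 CPM) and Obp2a (97616 and 159840 CPM), and higher for Lcn4 (55728 and 15398 CPM). The neuronal gene Omp (42.1 and 3.19 CPM, in 4 of the 14 cells) stood higher. So did Gnai2 (410 and 75.9 CPM, in 12 of the 14 cells), which is not confined to neurons here, as macrophages held 695 CPM. The part of Omp and Gnai2 in the result was not tested. UMIs of Vmn1r184 per 100 of Vmn1r185 came to 27.1 and 250 by library in gland-gated cells and to 255 and 5600 in macrophages, so the pooled values of 37.1 and 1400 depend on the library. Replicate 1 alone also showed it at 5 to 10% mitochondrial UMIs, in 5 of 50 gland cells against 0 of 57. The precursors with both Vmn1r185 and Vmn1r43 belong to that library as well.

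The immature cells were then compared between the Meis2 and Tfap2e branches. Because the members were chosen with these stages in view, their values are a description without a test. Vmn1r184 had 33 and 685 UMIs in Meis2 cells and 1 and 0 in Tfap2e cells, a ratio of CPM of 253 with a counting interval of 45.3 to 10010. Without the 2 cells that hold 100 or more UMIs of a member, 59 stood against 1, and the ratio was 21 (3.62 to 843). The libraries were unequal, since replicate 2 held most of the UMIs with those cells in place. Vmn1r185 had 1 and 209 UMIs against 0 and 0, which is at least 24.7-fold higher against a floor of 3 UMIs over the Tfap2e cells, but only at least 1.07-fold without those 2 cells. Vmn1r72 and Vmn1r79 had 3 and 1 UMIs in Meis2 cells and 0 in Tfap2e cells, so no fold is given.

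Across all genes, UMIs were summed by library and branch and fitted with edgeR's quasi-likelihood test, 2 sums against 2. Of 11154 genes, 415 differed at an adjusted p under 0.05 (3.72%), 228 higher on the Meis2 side (2.04%) and 187 lower (1.68%). Without Tfap2e replicate 1 the number was 1, without Tfap2e replicate 2 it was 95, and without Meis2 replicate 2 it was 259. With library as a block, which is the pairing the design gives, 977 genes were called, from fits with a single residual degree of freedom. Of the 36 V1R genes that reached 10 UMIs, 23 had none in one of the branches and so passed through the other, and no count of calls over the family is read as a result.

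Lists of genes known for the branches and for neuronal differentiation were read from the same fit. Of the 5 apical genes tested all were higher in Meis2 cells, among them Gnai2 (log2 difference 2.33 ± 0.16), the collagen-processing enhancer Pcolce2 (7.91 ± 1.13) and the homeobox gene Uncx (3.30 ± 0.55). Of 8 basal genes tested 5 were lower, namely Gnao1, Robo2, Shisa8, Rprml and Batf3. The other 3 went the opposite way, toward Meis2 cells, and were not called. Rtp1, which helps chemosensory receptors to the cell surface, was the only called gene of 19 tested on the list for receptor choice (4.83 ± 0.73), and of 9 Notch pathway genes tested Hes1 (2.94 ± 0.45) and Ccnd1 (3.73 ± 0.86) were higher in Meis2 cells. Nhlh2 was the 1 called gene of 10 proneural genes tested (fell by 1.44), Tubb2b and Dpysl3 were lower among 13 neurite genes, Gng13 was higher among maturation genes, and Epha5 and Cntn4 were lower among guidance genes, where Nrp2 was higher. The largest differences upward belonged to Ccl21a, 2700033N17Rik, G630016G05Rik, Col1a1 and Abi3bp, all at 0 in Tfap2e cells. Those of 2700033N17Rik (223 and 187 UMIs in 153 of 211 cells, at least 48.2-fold) and G630016G05Rik (176 and 104 UMIs in 137 cells, at least 32.9-fold) were spread over many cells, whereas Ccl21a came from 4 cells, Col1a1 from 6 and Abi3bp from 11. Markers of other cell types moved with the Meis2 group. Fibroblast markers had 4 of 5 called and summed levels of 421 and 86.2 CPM against 2.43 and 3.51 CPM. Sustentacular markers had 1 of 3 tested called, at 301 and 394 CPM against 17.0 and 17.5 CPM, and basal cell markers had 2 of 4 called, at 115 and 179 CPM against 4.86 and 7.01 CPM. Their part in these results, Hes1 and Ccnd1 included, was not tested. Downward the largest were Vmn2r78, Vmn2r41, Vmn2r89, Galnt16 and Flt1. The V2R genes among them came from 2, 2 and 3 of 74 Tfap2e cells, with 157, 29 and 50 UMIs in a single cell. Galnt16 came from 12 cells and Flt1 from 8. All but Vmn2r89 were at 0 in Meis2 cells and so passed the filter through the Tfap2e group.

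The 11 precursors with a UMI of a member were compared with the 259 without, the 4 genes being left out of the fit. Of 11362 genes 20 differed (0.176%), and 19 of them (0.167%) were higher in cells with a member. They were led by gland and secretory genes, with a log2 difference of 5.30 ± 0.62 for Lcn4, 5.18 ± 0.78 for Lcn3, 4.94 ± 0.57 for the mucosal scavenger protein gene Dmbt1 and 4.35 ± 0.57 for Obp2b. Of the gland markers, 3 of 3 tested were called, and their summed level was 31880 and 2241 CPM in cells with a member against 765 and 802 CPM in cells without. Pf4 (4.32 ± 0.62) is a platelet and macrophage chemokine, and its 31 UMIs in replicate 2 came from 1 cell. Macrophage markers stood at 308 and 2261 CPM against 445 and 178 CPM, with none of 6 called. What part the gland and macrophage transcripts had in the result was not tested. Gal, the gene of the neuropeptide galanin, was the single lower gene (0.0088% of those tested; -2.85 ± 0.57, adjusted p = 0.0255), with 1 and 2 UMIs against 269 and 204. Vmn1r43 was called with 39 and 0 UMIs against 0 and 1. Of 87 tested genes on the apical, basal, Notch, proneural, receptor choice, neurite, maturation and guidance lists, edgeR called 0 and DESeq2 called 1 gene in the whole comparison, not among them, while 16 had an unadjusted p under 0.05. The medians of these lists lay between -0.51 and 0.09 beside -0.39 over all genes. With at least 10 UMIs of the neuronal panel required, which left 9 such cells, 52 genes were called and Lcn3 stood at 4.59 ± 0.22. With library as a block 41 genes were called, and without replicate 1 of the cells with a member there were 9.

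Among immature Meis2 cells, 43 with and 168 without a member UMI differed in 3 of 10516 genes (0.0285%), all lower in cells with one. These were the chemokine gene Ccl21a, which came from 4 cells and has near-identical copies, Igfbp7 (-4.01 ± 0.43) and Vmn1r235, whose 92 and 69 UMIs in cells without a member came from 6 cells, with 90 in a single one. Igfbp7 was in 5 of 43 and 25 of 168 cells, with 95 UMIs in 1 of the latter. Fibroblast markers stood at 0 and 12.6 CPM against 494 and 114 CPM without a member, none called. Basal cell markers went both ways by library (12.5 and 379 against 133 and 106 CPM). The part of such transcripts in the result was not tested. Of 76 tested genes on the same 8 lists edgeR called 0, with 9 at an unadjusted p under 0.05, and the 2 genes DESeq2 called were among the 3. Medians were -0.04 for the 13 neurite genes, -0.15 for the 9 Notch genes and -0.16 for the 18 receptor choice genes, beside -0.06 over all genes. With library as a block 128 genes were called, and with any 1 of the 4 sums left out, between 15 and 114.

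The 44 mature Gnai2 cells led by one of the 4 genes were compared with the 786 led by another V1R, with V1R genes left out. Of 14324 genes 15 differed (0.105%), 6 higher (0.0419%) and 9 lower (0.0628%). Hbegf, which encodes a heparin-binding growth factor, was higher by 1.13 ± 0.16 on the log2 scale (adjusted p = 0.00341), with 564 and 714 CPM against 291 and 279, and was found in 21 of 44 cells against 291 of 786. The other higher genes were the V2R genes Vmn2r15, Vmn2r18, Vmn2r34, Vmn2r65 and Vmn2r78, and each came from a single cell. Qpct, which encodes a glutaminyl cyclase, was lower (-1.48 ± 0.19, adjusted p = 0.00193), with 100 and 102 CPM against 292 and 261 and detection in 34 of 44 and 678 of 786 cells. Also lower were Bglap3 (-2.34 ± 0.31), the kinesin gene Kif15 (-3.77 ± 0.64), the calcium-binding protein gene S100a5 (-3.49 ± 0.65), the lectin genes Reg3g and Mbl2, and Vmn2r96, Vmn2r79 and Vmn2r36, each V2R gene from at most 7 cells. S100a5 was the only called gene of 14 on the maturation list. It was found in 2 of 44 and 32 of 786 cells, and 1 of the latter held 98 UMIs. Bglap3 was in 9 of 44 and 189 of 786 cells. Reg3g was in 11 of 44 and 157 of 786, with 238 UMIs in 1 of the latter. Kif15 was in 2 of 44 and 151 of 786 cells, and Mbl2 in 10 and 274. As 31 of the 44 cells were led by Vmn1r184, the comparison is mostly about that gene. Of the 15 genes, 14 were called again without doublets and 15 with library as a block. In cells with at most 40000 UMIs 7 were, in thinned cells 4 and at a mitochondrial limit of 10% 4. Among the separate cells at 5 to 10% mitochondrial UMIs, 2 were. Median depth was 14076 UMIs against 15030 in replicate 1 and 24786 against 14543 in replicate 2. With library as a block 132 genes were called, and between 45 and 116 with any 1 sum left out.

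Over the 18 sums of 9 stages by library, the genes whose log2(CPM + 10) followed the members most closely were found by Pearson correlation among 12974 genes, as a description without p since the sums share libraries and depth. For Vmn1r184 these were Vmn1r231 (r = 0.98), Ptchd1 (0.97), 4833422M21Rik (0.97), Vmn1r218 (0.95) and Vmn1r38 (0.92), and for Vmn1r185 they were Ptchd1 (0.97), Vmn1r231 (0.97), 4833422M21Rik (0.97), Vmn1r218 (0.95) and Vmn1r43 (0.90). Vmn1r184 and Vmn1r185 correlated at 0.97, among the highest values for either, but members were left out of these rankings. In the immature Meis2 sum of replicate 2, 648 of 685 UMIs of Vmn1r184 came from 1 cell. For Vmn1r72 the closest genes were Vmn1r50 (0.98), Vmn1r219, Vmn1r26, Vmn1r211 and Cytl1, and for Vmn1r79 Cxcl10 (0.87), Tafa5, Ube2q1, Trim9 and Fancg. These patterns rest on 66 and 249 UMIs of Vmn1r72 and Vmn1r79, which correlated at 0.22 with each other. The sum of the 4 genes was closest to Vmn1r231, Ptchd1, 4833422M21Rik, Vmn1r218 and Gm43111 (0.86).

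More mature Gnai2 cells lay between 5 and 10% mitochondrial UMIs (1307) than within the limit used so far (947), and the rarer genes were better sampled there. In those 1307 cells Vmn1r79 had 997 UMIs in 17 cells (1.30%, 0.759 to 2.07%), 9 in replicate 1 and 8 in replicate 2, and reached 10 UMIs in 10 cells, so that it was found in mature neurons of both libraries. Vmn1r72 had 184 UMIs in 5 cells, 1 in replicate 1 and 4 in replicate 2. Vmn1r184 and Vmn1r185 reached 10 UMIs in 4.82% and 1.68% of these cells, against 4.33% and 1.16% at up to 5%. These cells were deeper, with a median of 26066 UMIs.

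**Figure D5:**
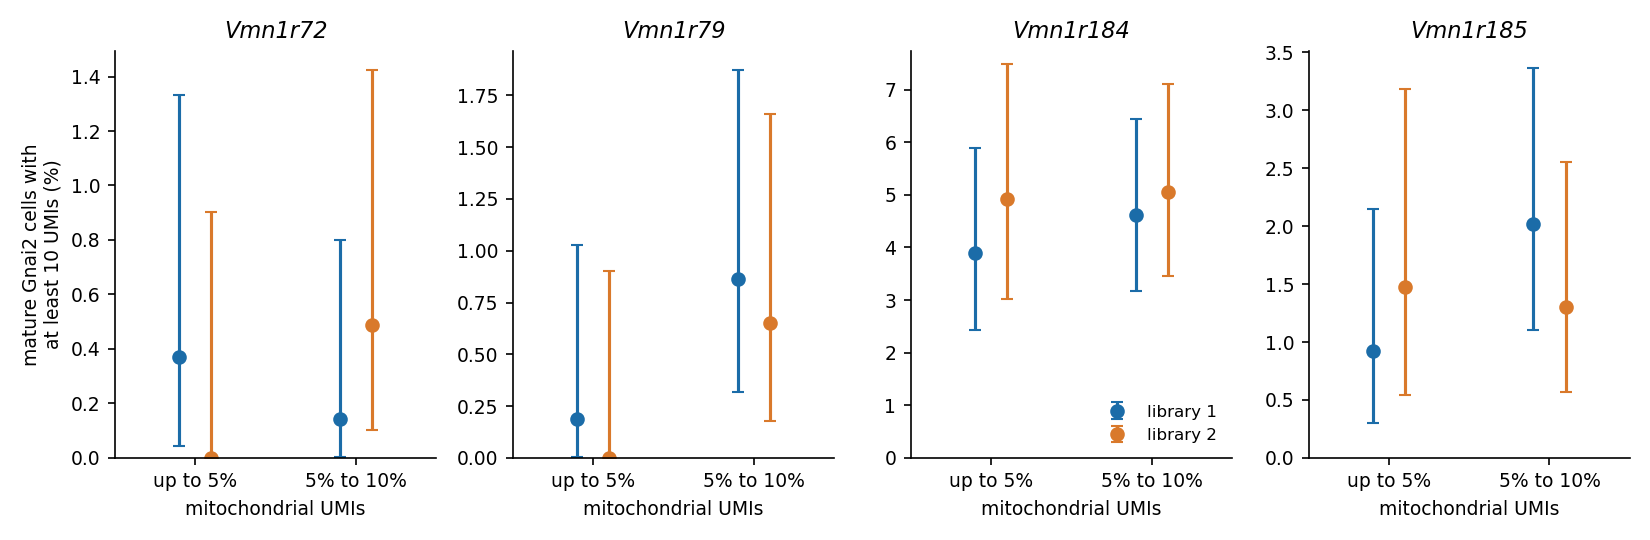
Share of mature Gnai2 cells with at least 10 UMIs of each gene (percent) at up to 5% and at 5 to 10% mitochondrial UMIs, for replicates 1 and 2, with exact 95% binomial intervals. Vmn1r79 was found at this level in both libraries between 5 and 10%, and the intervals of the libraries overlap for every gene.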

How the data were processed

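The deposited files hold 1 matrix of raw UMI counts of both libraries, which the authors made with Cell Ranger 4.0.0 on mm10 and aggregated over libraries; the processing notes also name bcl2fastq and Seurat 3.2.3. No source read here says if aggregation equalised depth. Barcode suffixes gave the library, and 0 columns were left out. Of 24084 barcodes, 10592 passed (200 to 9000 genes, mitochondrial share up to 5%), with 21823 genes seen in 3 or more cells. Doublets were scored with Scrublet in scanpy 1.11.5 at an assumed rate of 8% and left in. Members, gates and lists were chosen with earlier results of these data known. For tests, counts were summed by library and group, genes with at least 10 UMIs were kept, and edgeR 4.0.16 (TMM, quasi-likelihood, Benjamini-Hochberg adjustment, threshold 0.05) was run under R 4.3.3, checked on simulated data. DESeq2 1.42.0, other filters and gates, thinning to 5909 UMIs (178 of 1780 lineage cells were shallower and left out) and each sum left out in turn were the alternatives. Equal replicate numbers mark 1 shared capture, which pairs the sums; deviations of paired sums correlated at 0.0759, 0.0413, 0.0679 and 0.176 in the precursor, immature, branch and mature comparisons. Named genes were the members, the 5 V1R genes with most precursor UMIs, gate genes, the 5 largest called changes in each direction with the same sign in both libraries, called list genes, and the 5 genes of highest correlation. Other called genes, Vmn1r43 and the cells described singly were named after their values were seen. Sequences, positions and identities were read from GRCm38 with GENCODE M21; stop codons were not counted. Protein sequences were not used here. Depth was 108005626 and 95442231 UMIs, and intervals are exact binomial (95%).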

Additional observations from a re-analysis of the deposited data

Results flagged for a closer look

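Vmn1r79 was present in 1.30% of the 1307 mature Gnai2 cells between 5 and 10% mitochondrial UMIs, which the comparisons of the report leave out. It drew attention because macrophages within the limit held 1 UMI in 1 cell, and because the 2 mature cells with the gene at up to 5% were both in replicate 1, whereas here 9 cells were in replicate 1 and 8 in replicate 2.

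Vmn1r185 was present in 5.67% of 335 gland-gated cells, a population outside the neuronal lineage, against 0.672% of macrophages. The interval was 3.45 to 8.72%, and all but 1 of the 19 cells were in replicate 1. Vmn1r184 was present in more gland-gated cells, 8.06%, and in both libraries (10.5% and 5.52%), but never with 3 or more UMIs. Gland-gated cells were also deeper, with a median of 18512 UMIs against 4940.5 in macrophages.

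The highest count of Vmn1r72 in any Neurod1+ cell, 285 UMIs, came from a cell with 7 Omp UMIs, which neither the precursor nor the mature gate takes. No gated precursor and no macrophage held a UMI of the gene.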

How the results depend on the processing

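The libraries were few (2), and shares in precursors and Tfap2e cells rest on 11 and 1 cells, so differences of a few percentage points were not detectable there. Among cells between 5 and 10% mitochondrial UMIs the share with a member UMI was 7.77% in precursors, 6.85% in immature Meis2, 0% in immature Tfap2e and 15.9% in mature Gnai2 cells. Requiring 2 UMIs gave 7.58% in immature Meis2, 0% in Tfap2e and 6.02% in mature Gnai2 cells, and requiring 10, an alternative chosen after seeing the data, gave 0.741% in precursors and 0.948%, 0% and 4.54%. Thinning gave 0% in Tfap2e and 9.56% in mature cells, and gates of 2 UMIs or a stricter Omp gate gave 0% in Tfap2e cells. By single library, immature Meis2 shares were 14.9 to 26.8% and Tfap2e shares 0 to 2.38%.

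Numbers of called genes changed under most alternatives, and the cause was not tested. Called again between 5 and 10% mitochondrial UMIs were 4 of 20 precursor genes and 2 of 3 immature genes. For branches it was 123 of 415 and for mature cells 2 of 15. In the order precursors, immature Meis2 cells, branches and mature cells, the 20, 3, 415 and 15 genes became 1, 2, 221 and 3 with DESeq2, 48, 125, 831 and 93 without a filter, 173, 153, 1105 and 5 at a limit of 10% mitochondrial UMIs, 61, 339, 464 and 8 in cells between 5 and 10%, 4, 9, 334 and 14 without doublets, and 31, 3, 119 and 7 in thinned cells. With edgeR's filterByExpr precursors had 0 (565 at an unadjusted p under 0.05) and immature Meis2 cells 5. With library as a replicate block, which the shared captures justify, the counts were 41, 128, 977 and 132. With 1 sum left out, where the lone sum is assumed to vary like the others, they were 9 to 29, 15 to 114, 1 to 471 and 45 to 116. Alternatives added after seeing the data gave 52 for precursors with 10 UMIs of the neuronal panel and 86 for mature cells with at most 40000 UMIs.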
